A study of Zea mays with 16 samples.

Results

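In 1.5 mm maize anthers, 194 microarray probes read lower in both ms23 mutants and ms32 mutants than in the fertile siblings of each family. They were chosen from 4 arrays: the log2 ratio of mutant over fertile sibling, taken from the intensity processed by the scanner software, was at or below -1.5 on every one of them. A probe also had to be well above background in all 4 fertile samples and free of outlier marks. Of 42034 probes that are not controls, 30240 met the conditions on background and marks, here called eligible, and 194 of these (0.642%) met the ratio. The 194 member probes stand for 190 of the 39174 target names on the array. The same 4 arrays chose the members and give their ratios to fertile siblings, so these ratios are described and not tested.

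The study placed 16 labelled samples on 8 2-colour arrays, held on 2 slides of 4 arrays each. There were 6 samples of ms23-mutant anthers, 6 of ms32-mutant anthers, 2 of ms23-fertilesib and 2 of ms32-fertilesib anthers, all whole anthers of 1.5 mm from field-grown plants with no treatment. Slide 2 set mutant replicate 3 against fertile replicate 1 of the same family, with ms32 on arrays 1 and 2, ms23 on arrays 3 and 4, and the dyes swapped within each family. Slide 1 set ms23 mutants directly against ms32 mutants, with replicate 1 on arrays 1 and 2 and replicate 2 on arrays 3 and 4, again dye-swapped, and it took no part in choosing the members. The titles give both dye-swapped arrays 1 replicate number while the design text speaks of 2 biological replicates, so the spread between such arrays may be technical. The labels give neither the alleles nor the inbred background of either family. In whole anthers, fewer cells of a type and less RNA per cell cannot be told apart.

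The tapetum is the innermost wall layer of the anther, which surrounds the meiocytes and supplies developing pollen with nutrients, enzymes and wall material. MS23 and MS32 are basic helix-loop-helix transcription factors, a class that binds DNA as dimers, and anthers that lack either one fail to make a working tapetum and are male sterile. The comparison asks which transcripts read lower in both mutants at a stage when the wall layers of a fertile anther are already in place.

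The probes carry only target names. Of the members, 133 have a TC name (a tentative consensus assembled from expressed sequence tags), 59 a single expressed sequence tag or GenBank accession, 1 a coding sequence name (NP003930) and 1 the name of an assembled genomic island (MAGI4_28695). TC names made up 68.6% of members and 72.6% of eligible probes. None of the 190 target names matched the RefSeq gene table used here, so the members are given by target name and no gene role is attached to them. For the same reason the tapetum could not be checked through its known genes: 0 target names were those of tapetum or anther wall markers, and the ms23 and ms32 transcripts themselves were not looked up by name. Among the genes of known role that the array does name is a set that acts in meiosis. These are AM1, a switch for entry into meiosis, the cohesin subunits ZmRAD21, ZmSMC1 and ZmSMC3, which hold sister chromatids together, and the cohesin protector ZmSGO1. Of their 17 probes, 14 were well above background in the 4 fertile samples and 0 were members, where the share of eligible probes that are members is 0.642%. The mean ratios of the 14 over the 4 arrays ran from -0.30 to 0.42.

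Depth was similar throughout. The median processed signal of a sample over all probes lay between 166.3 and 244.9, the share of probes well above background ran from 81.2% to 94.8%, and no 2 samples held identical values.

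The drop was deep for most members in the processed signals. Over the 4 arrays, the mean log2 ratio of a member ran from -9.35 to -1.68 with a median of -3.53 and quartiles of -4.79 and -2.77, whereas the median of all eligible probes was 0.02. A mean at or below -5 was found for 41 members, and 131 were at or below -3. Family medians over members were -3.63 for ms23 and -3.40 for ms32. The size of the ratio depended on the processing. With normexp background correction (offset 50) of the median spot intensities and loess in place of the processed signals, the median was -2.39, and every member was still below 0 on both arrays of each family.

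Dye-swapped arrays of 1 family differed by a median of 0.68 over members in ms23 and 0.86 in ms32. The same gaps over all eligible probes were 0.50 and 0.62. Against that spread, the ratios of the 2 families overlapped for 110 members. Another 50 members (25.8%) were lower on both ms23 arrays than on either ms32 array, beside 12.3% of eligible probes, and 34 (17.5%) were lower on both ms32 arrays, beside 15.2%. Nothing is read from these shares, since the rule used the same ratios. Family means lay within 1 log2 unit of each other for 128 members. Over the 194 members the family means had a Pearson correlation of 0.671, a description over probes that share their arrays and were chosen for being low in both.

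**Figure D1:**
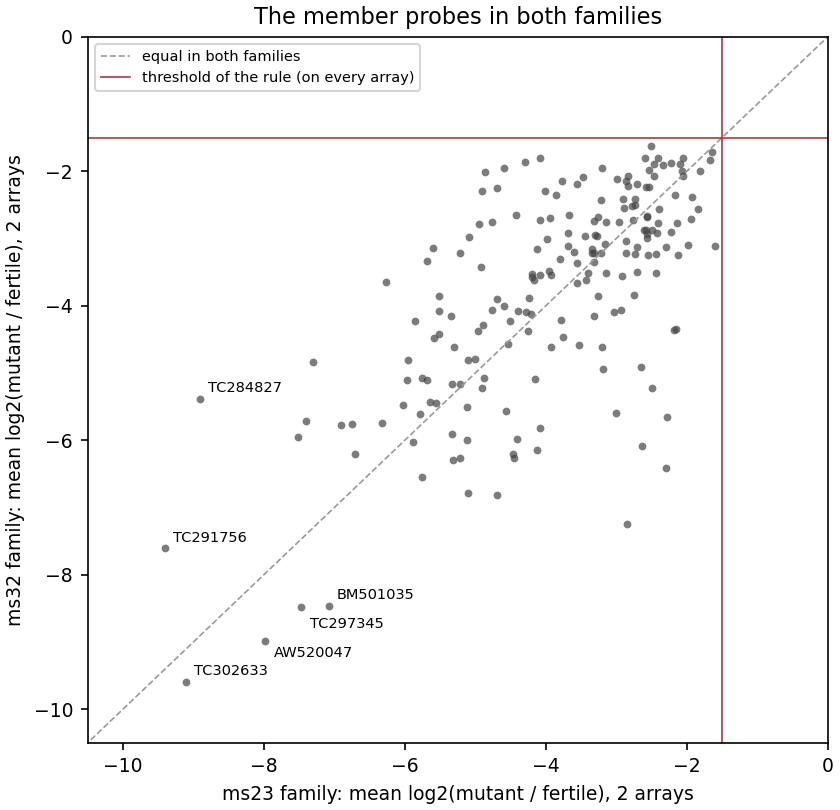
Mean log2 ratio of mutant over fertile sibling for each of the 194 member probes, ms23 family on the horizontal axis and ms32 family on the vertical axis (2 dye-swapped arrays each, processed signals); red lines mark the threshold of -1.5 and the dashed line equal ratios. Points spread on both sides of the dashed line, and the 6 named members with the lowest mean of the 4 arrays reach from -5.38 to -9.59.

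The members were bright in fertile anthers. The rule used these fertile values in its ratio and its background condition, so their brightness is described and nothing is read from it. Their mean level in the 4 fertile samples had a median percentile of 71.2 among eligible probes; 90 of the 194 were in the top 25%, 11 in the bottom 25% and 0 were saturated in a fertile sample. In processed signal, the median member read 2903 and 1576 in the ms23 fertile samples (Cy5 and Cy3) and 1906 and 2224 in the ms32 fertile samples. In the mutant samples of the same slide it read 121 and 133 in ms23 and 170 and 90.3 in ms32. On the grid of the array the members' median row and column were 279.5 and 44, beside 267 and 43 over all probes.

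TC302633 had the lowest mean ratio. Its processed signal was 12051 (Cy5) and 4651 (Cy3) in the ms23 fertile samples and 11736 and 9482 in the ms32 fertile samples. The mutants on the same slide read 15 and 12.3 in ms23 and 17.5 and 10.7 in ms32. All 4 fertile samples were thus far above all 4 mutant samples, and the log2 ratio was -9.11 ± 1.17 in ms23 and -9.59 ± 0.72 in ms32 (SD, n = 2 arrays), where the mutant sample in Cy3 was not well above background. On slide 1, the ms23 mutants read 8.61, 17.1, 9.65 and 46.6 and the ms32 mutants 8.85, 7.13, 25.4 and 35.1, again far below the fertile samples. With normexp and loess the ratios were -5.77 and -5.63.

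TC291756 followed. It read 14871 and 8530 in ms23 fertile samples and 14000 and 15062 in ms32 fertile samples, against 16.1 and 17.2 in ms23 mutants and 153 and 36.3 in ms32 mutants of slide 2. The ratio was -9.41 ± 0.50 in ms23 and -7.61 ± 1.40 in ms32 (SD, n = 2 arrays). All 4 ms32 mutant samples of slide 1, at 24.1, 47.1, 24.5 and 61.3, read above all 4 ms23 mutant samples, at 12.1, 8.01, 22.5 and 6.10. These readings are dim, and only 2 of the 4 ms23 samples were well above background.

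AW520047 was brighter still in fertile anthers, at 53001 and 23041 in ms23 and 39799 and 45081 in ms32. The mutants of slide 2 read 134 and 142 in ms23 and 84.6 and 83.3 in ms32, which gave ratios of -7.98 ± 0.79 and -8.98 ± 0.11 (SD, n = 2 arrays). On slide 1 the 8 mutant samples read between 10 and 50.6, so each of them was below each mutant sample of slide 2.

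TC297345 and BM501035 came next, with processed-signal ratios that were close between the dye-swapped arrays in ms23 and far apart in ms32. For TC297345 the ms32 mutant samples of slide 2 read 323 in Cy5 and 9.91 in Cy3, which made ratios of -6.64 and -10.32, while the ms23 ratios were -7.15 and -7.79. For BM501035 the ms32 mutants read 165 and 10.6, with ratios of -5.94 and -10.98, and the ms23 ratios were -6.77 and -7.38. For both members the ms32 mutant sample in Cy3 was not well above background, so the lower ms32 ratio is not a measured size. With normexp and loess the ms32 ratios were -6.28 and -6.00 for TC297345 and -5.27 and -6.62 for BM501035. In both cases the fertile samples, at 8946 to 32184 for TC297345 and 10156 to 21523 for BM501035, lay far above all mutant samples.

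TC284827 was the member with the largest difference towards ms23 between the family means, -8.91 ± 0.33 in ms23 against -5.38 ± 1.04 in ms32 (SD, n = 2 arrays). The fertile samples differed in the same way. They read 15324 and 7415 in ms23 and 2910 and 1559 in ms32, whereas the mutants of slide 2 read 18.2 and 27.1 in ms23 and 62.5 and 42.0 in ms32.

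The remaining members among the 10 lowest had mean ratios of the 4 arrays from -6.73 to -6.34. TC299638 was the brightest of them, at 147324 and 226071 in ms23 fertile samples and 129590 and 461961 in ms32 fertile samples. Its slide 2 mutants were lower but still bright, at 1818 and 642 in ms23 and 8039 and 2663 in ms32. TC283808 fell from 107087 and 83799 to 416 and 653 in ms23, and from 15596 and 88433 to 3197 and 114 in ms32. TC296484 had ratios of -6.90 ± 1.55 in ms23 and -5.77 ± 0.69 in ms32 (SD, n = 2 arrays). CO459119 was the dimmest in fertile anthers, at 917 to 1808, and its ratios were -6.71 ± 1.17 in ms23, where the mutant sample in Cy3 was not well above background, and -6.20 ± 0.62 in ms32 (SD, n = 2 arrays).

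**Figure D2:**
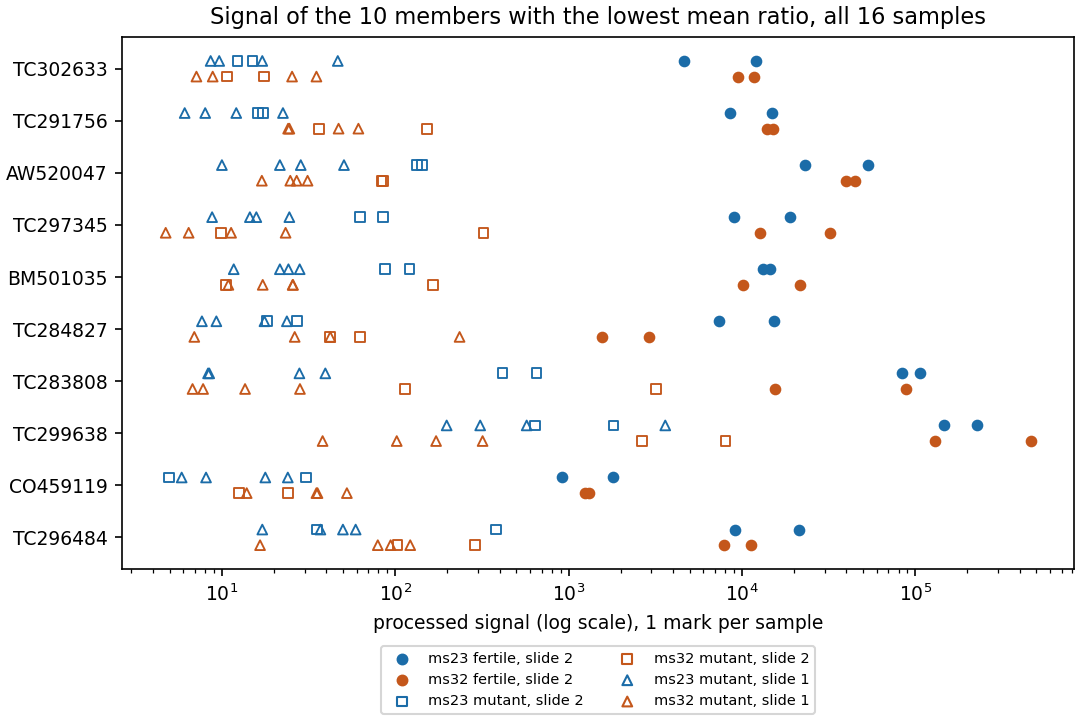
Processed signal (log axis) of the 10 members with the lowest mean ratio in all 16 samples: filled circles are fertile samples, squares mutants of slide 2 and triangles mutants of slide 1, with ms23 in blue and ms32 in orange. For every member all fertile samples lie to the right of all mutant samples, from 917 upwards for CO459119 and from 129590 upwards for TC299638.

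Members close to the threshold showed how the rule worked at its edge. TC290512, TC308672 and TC311698 were just inside it, with highest ratios of -1.501, -1.504 and -1.504. TC283957, TC282900 and TC315720 were just outside, at -1.495, -1.49 and -1.488. The mean ratios of the inner group, from -2.94 to -2.32, and of the outer group, from -3.17 to -1.82, overlapped. Stricter thresholds of -2, -3 and -4 on every array would have kept 136, 68 and 38 probes.

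A difference between the family means could come with a difference between the fertile samples or without one. For TC303514 and TC315175, described next, 1 of the 2 ms32 mutant samples of slide 2 was not well above background, so the size of the ms32 ratio is not fully measured. The examples that follow, other than TC290512, were chosen after their values were seen. In TC303514 the ms32 fertile samples read 1621 and 946 and the ms23 fertile samples 117 and 45.7. Mutants of slide 2 read 18.6 and 11.2 in ms32 and 15.5 and 14.2 in ms23, so the ratio of -6.42 ± 1.07 in ms32 beside -2.30 ± 1.06 in ms23 (SD, n = 2 arrays) went with unequal fertile levels and near-equal mutant levels. TC315175 showed the other case. Its fertile samples read 1932 and 1367 in ms23 and 2364 and 2007 in ms32, while the mutants of slide 2 read 242 and 209 in ms23 and 26.7 and 7.78 in ms32.

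TC315175 kept that order on slide 1, where the ms23 mutants read 296, 91.0, 418 and 347 and the ms32 mutants 14, 24.1, 32.6 and 28.8. The 4 ms23 samples were all above the 4 ms32 samples. The normalized direct ratio was 1.31 with an adjusted p of 0.0505 in limma's test, which misses the threshold of 0.05. In TC290512 the order was the opposite: the family ratios were -4.08 ± 0.35 in ms23 and -1.80 ± 0.42 in ms32 (SD, n = 2 arrays). Over all members, the difference between the family ratios and the gap between the fertile levels had a Pearson correlation of -0.444; both measures share the fertile samples, which alone gives them a relation.

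A target was represented by more than 1 member probe in 4 cases. The probes of TC307051 gave ratios of -4.69 and -4.12 in ms23 and -6.81 and -6.15 in ms32. Those of TC307265 gave -3.56 and -3.43 in ms23 and -3.66 and -3.62 in ms32, so each of these pairs of probes gave much the same ratios. Both probes of a pair had to pass the rule on the same arrays, so this likeness is a description only. The probes of TC283057 gave -3.35 and -2.50 in ms23 and -3.16 and -2.87 in ms32. CF627610 had the least alike pair, at -3.92 and -2.56 in ms23 and -4.62 and -2.99 in ms32. Its second probe was dim even in fertile anthers, at 17.1 to 100 in processed signal, and with normexp and loess its ratios were only -0.44 and -0.51.

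Another 25 probes of 22 member targets were on the array without being members. Of these, 16 were eligible, and 5 of the 16 were below 0 on all 4 arrays, beside 8.9% of all eligible probes. The median of the mean ratios was -0.08 over the 16 and -0.47 over all 25. TC293496 had a second probe at -2.86 and TC314724 one at -1.73. MAGI4_28695 had 4 further probes, at -2.16, -0.93, -0.31 and -0.14. For TC282390 the second probe read lower than the member itself, at -5.11, and stayed between -5.22 and -5.06 on the 4 arrays, but it was not eligible. An eligible second probe had means above 0 for CD445561 at 1.07, TC299961 at 0.30, TC301447 at 0.25, TC298747 at 0.17 and TC310442 at 0.10. For those 5 targets the member probes had means of -3.28 to -5.80. Further eligible second probes lay near 0, for DN586315 at 0.05, TC281628 at -0.01, TC280576 at -0.05 and TC284524 at -0.11. Why probes of 1 target name differed was not tested.

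**Figure D3:**
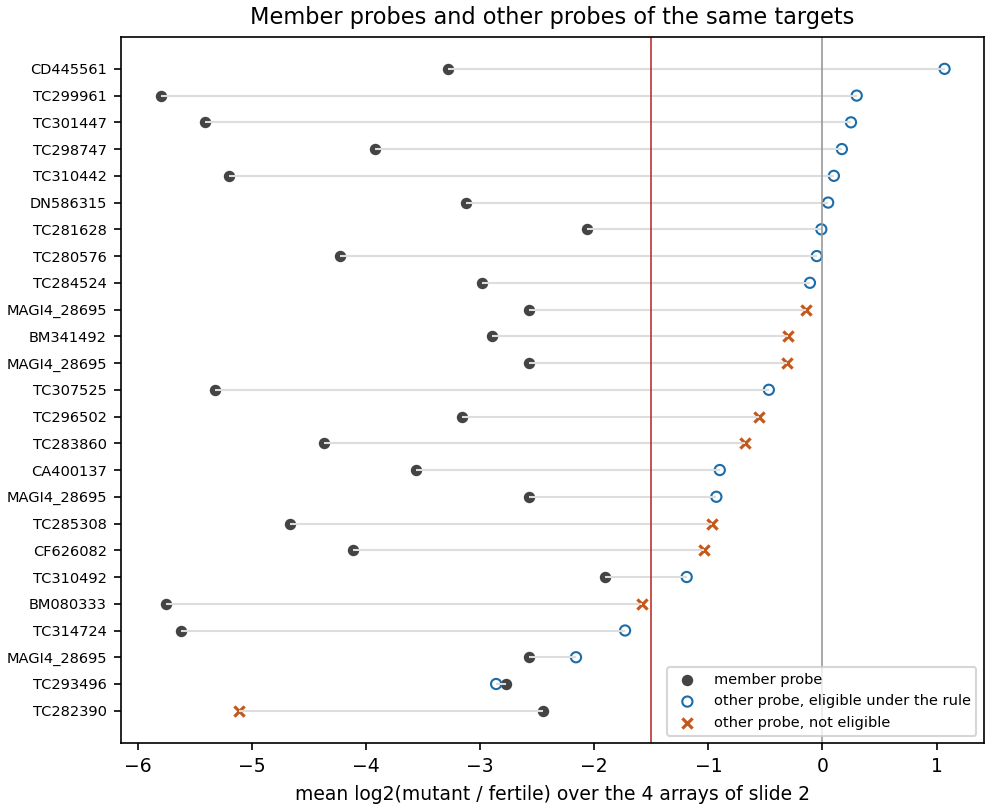
Mean log2 ratio of mutant over fertile sibling over the 4 arrays of slide 2 for the member probe (black) and the 25 other probes of the same targets (blue circles eligible, orange crosses not eligible); the red line marks -1.5. The other probes run from -5.11 for TC282390 to 1.07 for CD445561, and most lie to the right of their member probe.

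Slide 1 gave mutant samples that the rule did not use. Each sample was scaled to its 75th percentile, and the mutants of slide 1 were set beside the fertile samples of slide 2. This description was added after the data had been seen, it runs across slides, and the fertile values in it are those the rule used, so no test was made. All 4 ms23 mutant samples of slide 1 were below both ms23 fertile samples for 187 of 194 members, beside 9.18% of eligible probes. The same held in ms32 for 185 members, beside 7.49%, and in both families for 180 members, beside 2.53%. The median gap was -3.92 log2 units in ms23 and -3.71 in ms32, where the medians over eligible probes were 0.05 and 0.11. A gap of -1.5 or lower was found for 186 members in ms23, beside 3.61%, and for 185 in ms32, beside 2.55%. No member had a gap above 0 in either family.

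The 14 members with an overlap in at least 1 family included 5 that were also called in the direct comparison of the mutants or lay just inside the threshold. TC310318 had a gap of only -0.22 in ms23, since 2 of its 4 slide 1 mutant samples, at 75967 and 68390 in processed signal, were brighter than both ms23 fertile samples, at 41575 and 22005. TC308672 had gaps of -0.62 in ms23 and -1.84 in ms32 with overlap in both. TC280400 overlapped in ms32, with a gap of -0.79, and TC295414 in ms23, with a gap of -1.05. TC290512 overlapped in ms32 with a gap of -1.99.

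**Figure D4:**
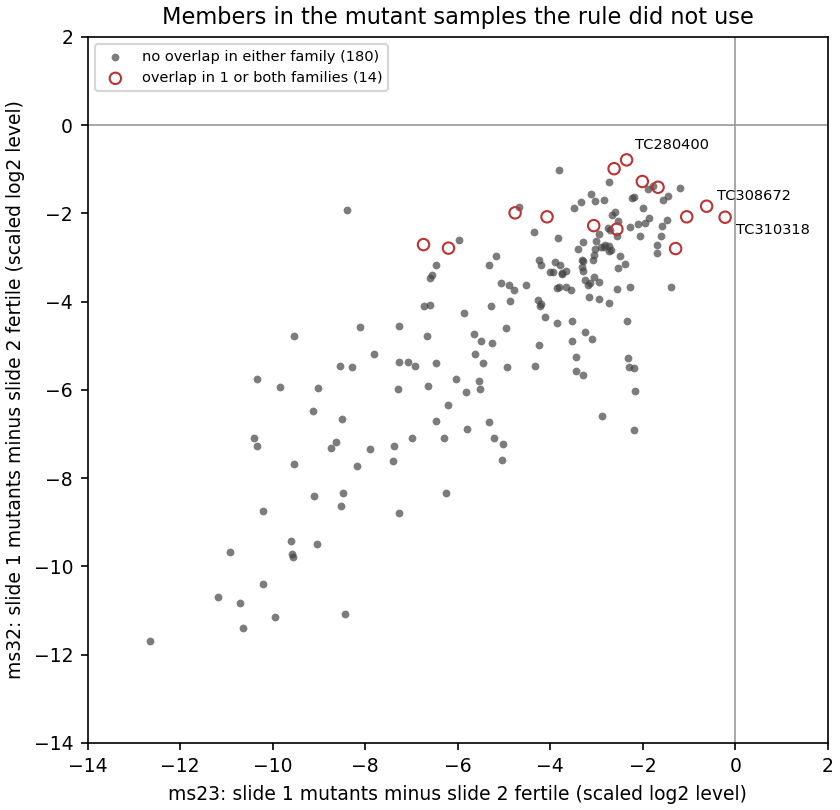
Scaled log2 level in the slide 1 mutants minus that in the slide 2 fertile samples for each member, ms23 on the horizontal axis and ms32 on the vertical axis (means of 4 mutant and 2 fertile samples); red circles mark the 14 members with an overlap between samples in 1 or both families. All 194 points lie below 0 on both axes, with TC310318 nearest to it in ms23 at -0.22 and TC280400 in ms32 at -0.79.

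Bright members often read lower in the mutants of slide 1 than in those of slide 2. The scaled level was higher in both ms23 mutant samples of slide 2 than in all 4 of slide 1 for 53 members, or 27.3%, beside 5.51% of eligible probes, and the reverse was seen for 7 members beside 6.09%. In ms32 the counts were 40 members beside 2.93% and 10 members beside 7.88%. A gap of over 3 log2 units was found in ms23 for 24 members, 20 of them in the top 25% of fertile level, out of 52 eligible probes in all, and in ms32 for 16 members out of 29 eligible probes. Among probes in the top 25% of fertile level, both slide 2 mutants were above all 4 of slide 1 for 39 of 90 members in ms23, beside 6.1%, and for 28 of 90 in ms32, beside 3.24%.

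TC309744, the brightest member in ms23 fertile anthers at 646590 and 841961, read 47477 and 23884 in the ms23 mutants of slide 2 but 220, 294, 442 and 1221 in those of slide 1. DT535501 had the largest such gap, 7.09 in ms23, with processed signals of 1063 and 1687 on slide 2 and of 6.66 to 18.7 on slide 1. Mutants of slide 2 shared their arrays with fertile samples and carried replicate number 3, whereas those of slide 1 shared arrays with other mutants and carried numbers 1 and 2. Slide, array partner and replicate cannot be told apart, and the comparison was made after the values were seen.

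Most members were still above background in the mutants. On slide 1, 124 of 194 (63.9%) were marked well above background in all 8 mutant samples, beside 93.2% of eligible probes, and 70 missed the mark in at least 1. None missed it in all 8, beside 0.00331% of eligible probes. BM501126 and DN586315 missed it in all 4 ms23 mutant samples, 2 members beside 0.0298% of eligible probes, and 0 members missed it in all 4 ms32 samples, beside 0.0132%. On slide 2, 138 members (71.1%) were well above background in all 4 mutant samples, beside 95.9%. TC309050 and TC296363 were so in none of the 4, beside 0.0265%, and 5 members missed it in both ms23 samples and 11 in both ms32 samples, beside 0.109% and 0.208%.

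For probes below that mark in both mutant samples of a family, the size of the ratio is not measured. Folds were taken from channel levels after normexp correction (offset 50), loess and quantile scaling between arrays. The offset draws the folds of dim spots towards 1, so the folds below are smaller than those of the processed signals. They do not give the size of the drop. Mutant levels were also raised to the lowest level that was well above background. That floor hardly changed the folds, from 2.37 to 2.36 for TC309050 in ms23, so they are not bounds set by detection. TC303153 was 2.80-fold lower and TC308255 2.77-fold lower in ms23 mutants than in their fertile siblings. TC309050 was 2.36-fold lower in ms23, while TC296363 was 1.25-fold and BM501126 1.36-fold lower. In ms32 mutants TC302595 was 2.79-fold lower and TC305975 2.17-fold lower. The others in ms32 ran from 1.25-fold for CO451227 to 1.87-fold for TC296363, with TC309050 at 1.72-fold. These folds carry no test, since the rule used the same contrast. Where at least 1 mutant sample was well above background, the same scale gave a fold change. TC302633 was 54.5-fold lower in ms23 and 49.7-fold lower in ms32, where 1 of the 2 mutant samples had the mark, and AW520047 was 126-fold and 133-fold lower.

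**Figure D5:**
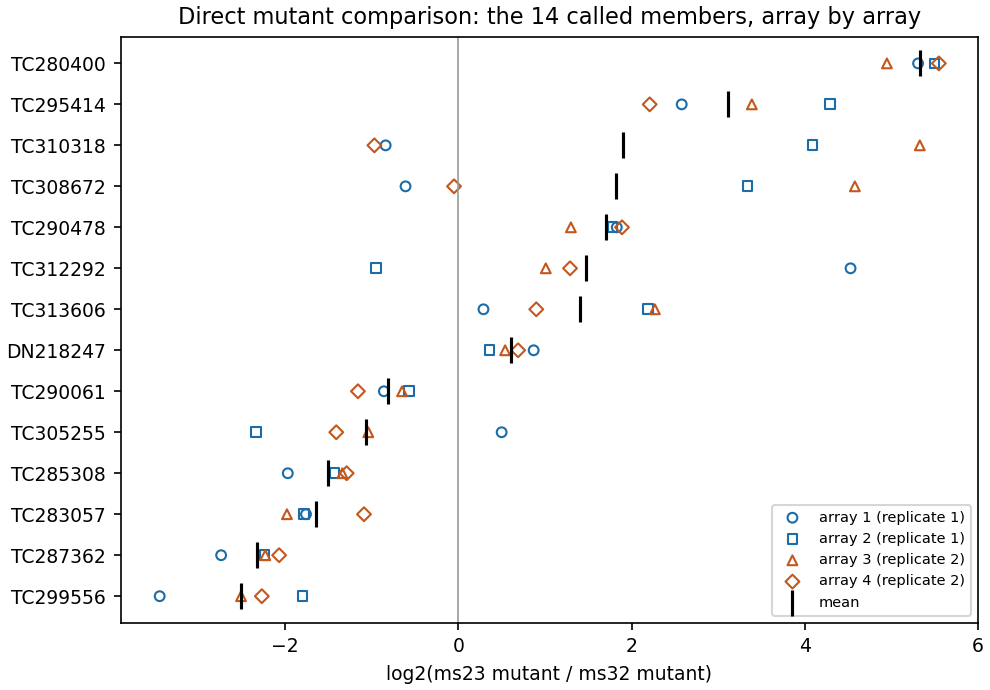
Log2 ratio of ms23 mutants over ms32 mutants on each array of slide 1 for the 14 called members (circles and squares replicate 1, triangles and diamonds replicate 2, black bar the mean). TC280400 stays between 4.95 and 5.55 on all arrays, whereas TC310318, TC308672, TC312292 and TC305255 have arrays on both sides of 0.

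The direct comparison of the mutants on slide 1 used ratios that took no part in choosing the members, and it asked whether members low in both mutants differed between them. By limma's moderated test on the dye-swap averages of 2 replicates, with Benjamini-Hochberg adjustment over 39981 probes, 14 of 194 members were called, 8 higher in ms23 mutants and 6 higher in ms32 mutants. That is 7.22% of members, beside 11% of all probes tested, 5.31% higher and 5.67% lower in ms23. The median ratio was -0.01 over members and 0.01 over all probes, and 176 members (90.7%) were within 1 log2 unit either way beside 91.6% of all probes. Only TC280400 and TC295414 lay beyond 3 either way, beside 1.1% of all probes. At an unadjusted p under 0.05 there were 49 members, or 25.3%, beside 30.5%. With 2 replicates the test has 1 residual degree of freedom and borrows its spread across probes, so a missed call does not show equal levels.

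The count of calls, and its place beside the share of all probes, turned on the settings. All 194 members entered the test through their fertile samples, which the rule had used. With a filter on the slide 1 mutants alone, 144 members were left and 16 were called, 11.1% beside 16.5% of probes. With a normexp offset of 10 there were 43 calls, 22.2% beside 21.9%, with the processed signals 37, 19.1% beside 17.3%, and with robust variances that follow intensity 38, 19.6% beside 19.9%. Median centring gave 41, 21.1% beside 25.9%, and the deposited table gave 0 by limma for members and for all probes. The share of members called was thus below that of all probes in some settings and level with it or above it in others.

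TC280400 stood out. The ms23 mutants of slide 1 read 22050, 13741, 35887 and 19362 and the ms32 mutants 225, 321, 396 and 744 in processed signal. The 4 arrays gave log2 ratios of 5.31, 5.50, 4.95 and 5.55, with a mean of 5.33 (SE 0.0946, n = 2 replicates, adjusted p = 0.00859 in limma). Fertile siblings differed in the same direction, with 80919 and 115856 in ms23 and 726 and 536 in ms32, and scaled log2 levels of 6.03 and -1.36. Within each family the ratio of mutant over fertile was -2.10 ± 0.11 and -1.89 ± 0.03 (SD, n = 2 arrays). The level of TC280400 thus differed more between the families than between mutant and fertile anthers, in mutant and in fertile samples alike. TC280400 passed the threshold in 14 of 15 alternative analyses.

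TC295414 was also higher in ms23 mutants, by 3.12 (SE 0.197, n = 2 replicates, adjusted p = 0.016 in limma) and by 2.21 to 4.29 on the single arrays. Its fertile samples read 23979 and 16216 in ms23 and 2538 and 6923 in ms32. TC290478 was higher by 1.70 (SE 0.102, n = 2 replicates, adjusted p = 0.0151 in limma), with 1.30 to 1.89 on the arrays and ms23 samples of 1281 to 1946 against ms32 samples of 228 to 462. All 4 ms23 samples were above all 4 ms32 samples in processed signal for both of these members.

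TC299556 was lower in ms23 mutants, with a mean ratio of -2.51 (SE 0.107, n = 2 replicates, adjusted p = 0.0108 in limma). Its slide 1 samples read 173, 166, 315 and 277 in ms23 and 3266, 1344, 2368 and 2598 in ms32, and its fertile samples 989 and 876 in ms23 and 7847 and 5912 in ms32. TC287362 was lower by a ratio of -2.32 (SE 0.127, n = 2 replicates, adjusted p = 0.014 in limma). It differed from TC299556 in that the fertile samples overlapped between the families, at 175881 and 100926 in ms23 and 79042 and 146990 in ms32. Mutants of TC287362 read 8713 to 12874 in ms23 and 45928 to 64286 in ms32 on slide 1, and 9331 and 4919 beside 35047 and 25139 on slide 2. The ms23 mutants were below the ms32 mutants on both slides.

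TC285308 had a ratio of -1.51 (SE 0.137, n = 2 replicates, adjusted p = 0.026 in limma), with ms23 mutants at 203 to 358 and ms32 mutants at 999 to 1304. A probe of TC283057 had a ratio of -1.65 (SE 0.106, n = 2 replicates, adjusted p = 0.0163 in limma). The other member probe of TC283057 was at -0.10 with an adjusted p of 0.595 in limma's test, so the call rested on 1 of its probes. That other probe was dimmer, at 16 to 60.6 in the slide 1 mutants.

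Arrays of opposite sign lay behind 4 of the 14 calls. TC310318 had a mean of 1.90 (SE 0.178, n = 2 replicates, adjusted p = 0.0269 in limma) from arrays at -0.84 and 4.09 in replicate 1 and 5.33 and -0.97 in replicate 2. TC308672 had 1.82 (SE 0.266, n = 2 replicates, adjusted p = 0.049 in limma) from -0.61, 3.34, 4.58 and -0.05. The averages of each dye-swapped pair were near each other while the arrays within it were not, which the standard error of the averages does not hold. TC310318 passed the threshold in 7 of 15 alternatives, with adjusted p from 1.25e-13 to 0.929, and TC308672 in 6 of 15, with adjusted p from 5.06e-11 to 0.822. TC305255, at -1.07, and TC312292, at 1.47, were called in 7 of 15 alternatives each.

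The remaining called members were TC313606 at 1.41 and DN218247 at 0.61, both higher in ms23 mutants, and TC290061 at -0.81. Of the 10 members with the lowest ratios to fertile siblings, none was called in the direct comparison. TC299638 had the largest ratio among them, 1.37 (SE 0.469, n = 2 replicates, adjusted p = 0.176 in limma), with 4.40 on array 1 and -0.01 on array 2. Several of the 10 were dim in both mutants of slide 1, with normexp log2 levels of 6.04 and 6.08 for TC302633 and 6.01 and 5.99 for TC283808 (ms23 and ms32). An offset of 50 draws the ratios of such dim spots towards 0, so a missed call does not show equal levels. TC291756 had a direct ratio of only -0.28, though its processed signals did not overlap between the mutants. It too was dim, with only 2 of its 4 ms23 samples well above background.

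Calls were read against which family had the deeper drop on slide 2. Of the 50 members lower on both ms23 arrays, 4 were called lower and 1 higher in ms23 mutants. At an unadjusted p under 0.05 in limma, 13 of them were lower and 5 higher. Of the 34 lower on both ms32 arrays, 4 were called higher and 0 lower in ms23 mutants, with 9 and 1 at that unadjusted p. The 110 with overlapping ratios had 3 higher and 2 lower calls, with 10 and 11 at that unadjusted p. Over all probes tested, 5.31% were called higher and 5.67% lower, with 5856 higher and 6349 lower of 39981 at that unadjusted p. The split used the ratios of the rule and the counts are small, so nothing is read from them. The difference of family ratios and the direct ratio had a Pearson correlation of 0.196 over members, given as a description.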

How the data were processed

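The scanner files, made with Agilent Feature Extraction 10.5.1.1 on array design 016047 per the file headers, give linear intensity values per spot and dye: the median, the local background and a processed signal that the software had corrected for background and dye. A deposited table holds intensity values processed by the authors on a linear scale, with centring and zeros not explained in the sources used here. Besides the scanner software, limma is listed in the submitters' processing notes.

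Members were found from the processed signals. For slide 1, median intensities were corrected by normexp (offset 50) and loess-normalized in R 4.3.3 with limma 3.58.1, leaving out 1417 control spots and marked outliers. Dye-swapped arrays of 1 replicate number were averaged, and limma's eBayes test was adjusted over the 39981 probes marked well above background in no fewer than 50% of the samples in 1 or more of the 4 groups; all 194 members passed, through their fertile samples. Scaled log2 levels are processed signals over each sample's 75th percentile. The number of arrays limits the precision.

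Members, lists and tests were chosen with earlier results of these data known. Named are the 10 lowest members, targets with more than 1 member probe, up to 5 calls each way, and the 3 probes on each side of the threshold; other names were chosen after their values were seen. The gene lists on tapetum, pollen wall, lipid, wall, protease, cytochrome P450, small RNA, transporter and meiosis genes could not be applied, since the targets carry no gene name or description; meiosis genes are the exception given in the text. The deviations of the mutants of replicates 1 and 2 correlated at 0.64 between genotypes, which share arrays. On simulated ratios the share of false calls was above the nominal one under both ways of drawing the variances, more so under the one run first. Alternatives covered background correction, normalization, filters, variance models, the deposited table and left-out arrays. Sequences of the probes were not analysed here.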

Additional observations from a re-analysis of the deposited data

Results flagged for a closer look

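Of 87 sets of 4 or 6 values of 1 named member, 3 held a value whose distance to its nearest neighbour was large for the range of the set. Chance gives this in about 1 in 20 sets. BM501035 had a scaled log2 level of -3.43 in the ms32-mutant sample of replicate 3 in Cy5 on slide 2, with the other ms32 mutants between -7.26 and -6.05. The probe of TC283057 that was called in the direct comparison had a level of 2.39 in the ms32-mutant sample of replicate 3 in Cy3 on slide 2, with the others between -0.09 and 0.40. The other member probe of TC283057 had a direct ratio of 0.11 on array 2 of slide 1, with the other arrays between -0.19 and -0.14.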

How the results depend on the processing

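The count of 14 members called between the mutants moved to 43 (22 higher and 21 lower in ms23) with a normexp offset of 10, where 8756 of all probes were called in place of 4392, to 37 with the scanner software's signals and loess (6923 of all probes), to 38 with robust variances that follow an intensity trend (7939 of all probes), and to 0 with the deposited table by limma, where 9 members were higher and 13 lower at an unadjusted p under 0.05. With median centring it was 41, split 16 higher to 25 lower beside 8 to 6, and the median member ratio moved from -0.01 to 0.13; all probes then had 10346 calls. A fit of all 8 arrays called 15 members and 8227 probes. Without single arrays of slide 1 it was 4 to 10, with 9 without array 1 and 4 without array 4. The replicate block, as a fixed term added after the data were seen, gave 14 calls, 5 higher and 9 lower; the planned random block was not run because it could not be estimated. The same numbers mark samples hybridised together, and no pairing of plants is known. Without replicate 1 or 2 no residual degrees of freedom were left, and the median stayed at -0.01. The number of members was 317 at a threshold of -1, 101 with normexp and loess ratios, and 208 to 361 without single arrays of slide 2, the highest without array 2. The median ratio of -3.53 was -2.39 with normexp and loess and -3.81 in the deposited table, where both mutant values were at 0 for 40 members in ms23 and 19 in ms32. Beside that change of sign of the median with median centring, the balance of calls turned from 8 higher and 6 lower to more lower than higher in several alternatives, among them the replicate block and the 8 arrays, where it was 5 to 10. No called ratio of a named member changed sign, while some uncalled ones near 0 did. The causes of these moves were not tested. Dim mutant spots limit the size of a ratio, which for them moved with the processing.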
